A study of Homo sapiens with 4 samples.

Results

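The genes described here are 31 messenger RNAs reported in the literature as direct targets of miR-204-5p or of its close relative miR-211-5p. They were taken by name from such reports, with earlier results of these arrays known, and other reported targets, among them CXCL8, THBS1 and ELOVL6, are described apart. Features of the array were matched to them through the platform's gene symbols, and 28 of the 31 had a named feature, out of 17687 distinct symbols and 21448 features in all. EPHB2, FOXC1 and FRS2 were not analysed here. Each of the 28 had 1 feature, so no choice between features of a gene had to be made.

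RNA came from HeyA8-MDR cells, a multidrug-resistant derivative of the human ovarian carcinoma line HeyA8, which all 4 arrays share; its medium held 15% serum, 0.1% of the antibiotic gentamicin and paclitaxel at 300 ng/ml. The study compared cells given a control microRNA inhibitor with cells given an inhibitor of miR-204-5p, to see which transcripts change when that microRNA is lost. Each group had 2 arrays. Because the treatment text is the same for all 4 samples and mentions only the miR-204-5p inhibitor, groups rest on the titles: arrays titled miR204 form the inhibitor group, and the remaining pair stands for the control inhibitor that the design text describes. Inhibitor dose, time of treatment and whether replicates were separate cultures are not given in the sources used here, so the p-values cover the spread among 4 arrays, which could be technical alone. A single cell line is a limited model, and miR-204-5p was not itself measured in the values used here.

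A microRNA guides an Argonaute protein to messenger RNAs that pair with its seed, the short stretch near its 5′ end, and the bound messenger RNA is then translated less and often degraded. The inhibitor, an antisense strand, occupies the microRNA and blocks this pairing, so a direct target that is controlled through RNA decay is the kind of transcript whose level can be read on an array. Control through translation alone leaves the messenger RNA level as it was. miR-204-5p is best known from the eye and other epithelia, and it is carried in the gene TRPM3, while miR-211-5p is carried in TRPM1, a gene of melanocytes. Both have been described as restraining genes of the mesenchymal state, of growth factor signalling and of autophagy.

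The mature sequences show why reports on either microRNA were pooled. They are given 5′ to 3′ as RefSeq annotates them on GRCh38.p14, with the seed, bases 2 to 8, in capitals.
miR-204-5p: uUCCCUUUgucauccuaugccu
miR-211-5p: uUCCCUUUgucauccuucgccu
miR-204-5p lies on the minus strand of chromosome 9 from 70810031 to 70810052, inside the bounds of TRPM3, and miR-211-5p on the minus strand of chromosome 15 from 31065095 to 31065116, inside those of TRPM1. The 22 bases are equal at 20 positions, and the substitutions from miR-204-5p to miR-211-5p, counted from the 5′ end, are A17U and U18C, both outside the seed. Among 2545 mature human microRNAs in the table, these 2 alone have the seed UCCCUUU. A messenger RNA pairs with it through the letters AAAGGGA. Target sites in the transcripts were not searched, because no transcript sequence was used here.

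On the arrays, values were log2 expression levels from 1.61 to 13.1, with array medians of 5.65 and 5.68 in controls, against 5.59 and 5.61 under the inhibitor. The arrays correlated at 0.995 between controls, 0.986 between inhibitor arrays and 0.984 to 0.989 between groups (Pearson, across features). Of the markers of ovarian carcinoma, the keratins KRT8, KRT18 and KRT7 had means of 11.38, 10.96 and 10.72 in the controls and the lineage factor PAX8 one of 8.47, whereas the epithelial adhesion gene EPCAM (3.53) and the mucin-binding MSLN (3.56) lay in the dimmest 25% of features. The drug pump ABCB1 had values of 7.68 and 7.77 in controls, against 7.67 and 7.55 under the inhibitor. Of 5 endothelial markers, the cadherin CDH5 was the highest in the controls, at 8.13 and 8.06. The summed log2 level of the endothelial list was 24.2 and 24.1 in controls, against 23.5 on both inhibitor arrays. Of this list 3 genes were higher and 2 lower, with a median difference of 0.05, and CDH5 had the largest difference (-1.08). For 4 measured leukocyte markers the sums were 15.4 and 15.6, then 16.4 and 15.9, and for 5 fibroblast markers 25.4 and 24.8, then 23.8 and 24.8. The leukocyte markers were dim. PTPRC (2.84) and LYZ (2.99) lay in the dimmest 25% of features in control mean, and CD3E (4.64) and CD14 (5.03) below the median level. Such sums do not measure how many cells of a kind were present. The part of these markers in the results below was not tested.

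Among the 28 measured members of this list, none passed the threshold of an adjusted p of 0.05 in limma, and the differences were small. Their lowest adjusted p was 0.21, for the transcriptional repressor SNAI2, and their largest difference was 1.40-fold, for the homeodomain factor MEIS2. CXCL8, a reported target kept apart from this list, did pass (difference 1.50, adjusted p = 0.041). ELOVL6 (-0.86) and THBS1 (0.58), also kept apart, did not pass but differed by more than any member. In the same fit 11 of 21448 features passed (0.0513%), all higher with the inhibitor, and 0 did so without any 1 of the 4 arrays. At an unadjusted p under 0.05, 5 of the 28 differed, which is 17.9% of them, and 17.9% of all features did as well. SNAI2 and the autophagosome gene MAP1LC3B were the 2 that were higher (5.11% of all features), and TGFBR2, MEIS2 and AP1S1 were the 3 that were lower (12.8% of all features). That count of 5 was 0 without control array 1, 0 without control array 2 and 3 without inhibitor array 2, in fits with fewer degrees of freedom. The share of nominal differences among the members was that of all features, and members went both ways: 11 were higher and 17 lower, with a median difference of -0.14 log2 units. Over all features 40.5% were higher and 59.5% lower, with a median of -0.07. The arrays measure bulk RNA, in which fewer cells of a kind and less RNA per cell cannot be told apart.

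**Figure D1:**
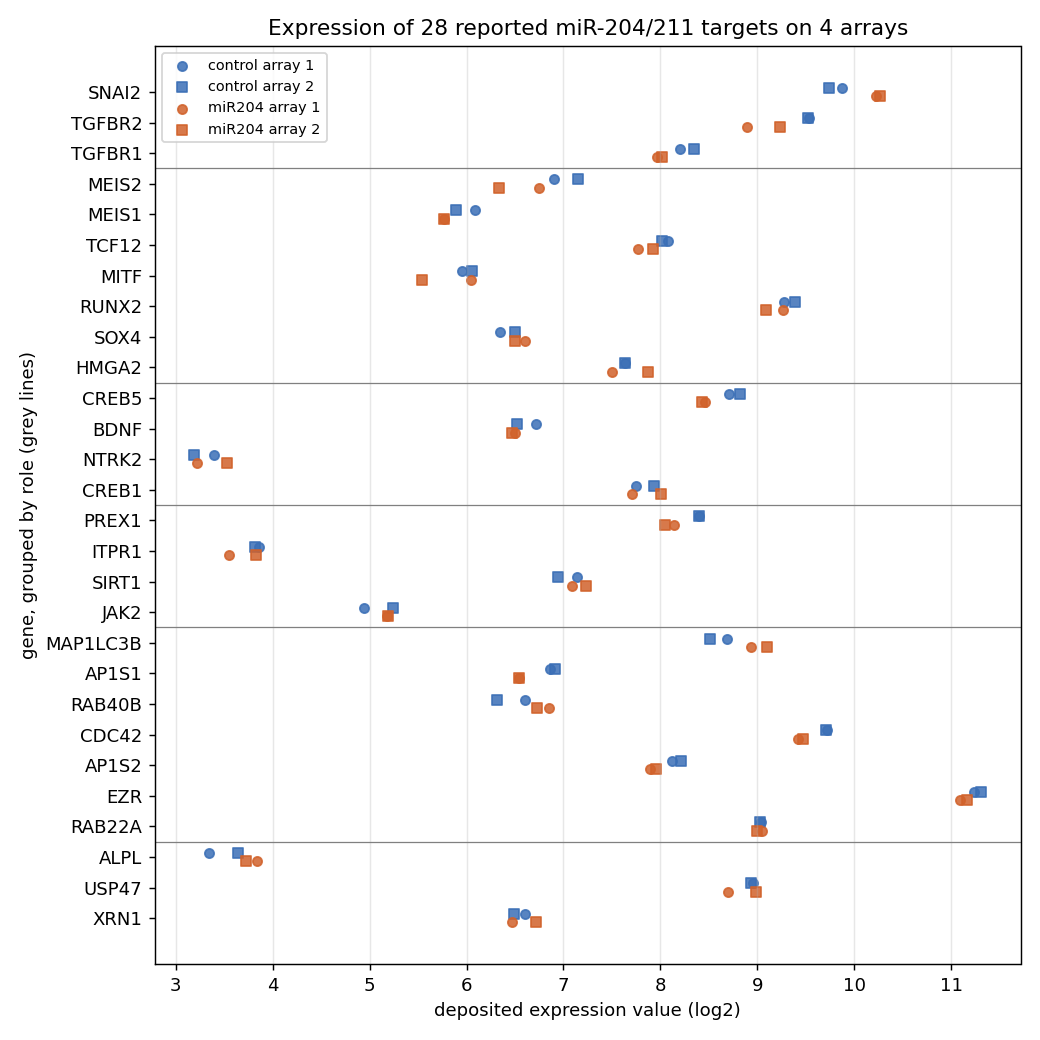
Deposited expression value (log2, x axis) of each of the 28 reported targets (y axis, grouped by role) on the 4 arrays; blue marks are the control arrays, orange the inhibitor arrays, circles replicate 1 and squares replicate 2. Both inhibitor arrays of SNAI2 and MAP1LC3B lie above both controls, and both of TGFBR2, MEIS2 and AP1S1 lie below.

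Both TGF-beta receptors were lower with the inhibitor and SNAI2 was higher, and in none of the 3 did the groups overlap. The groups were also separate for 50.3% of all features. In the brightest 25% of features, where all 3 lay, 61.6% were lower without overlap and 8.63% were higher without overlap. TGF-beta binds the type II receptor kinase TGFBR2, which recruits and activates the type I kinase TGFBR1, and SNAI2 (Slug) is a zinc finger repressor of epithelial genes that this pathway can induce. SNAI2 (TC0800010382.hg.1) had values of 9.87 and 9.74 in controls, against 10.22 and 10.27 under the inhibitor. Both inhibitor arrays were above both controls, and the arrays of a group lay close together. Its difference was 0.44 log2 units (SE 0.144, 95% interval 0.10 to 0.78), or 1.36-fold, with an adjusted p of 0.21 in limma. When limma's prior was allowed to follow brightness (an intensity trend, under which bright features have a smaller expected spread), it passed with an adjusted p of 0.014. Across the other settings on 4 arrays its adjusted p lay between 0.0018 and 0.35.

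TGFBR2 (TC0300006925.hg.1) went the other way. Its values were 9.53 and 9.52 in controls, against 8.89 and 9.23 under the inhibitor. The controls all but coincided, and both inhibitor arrays were lower, though 0.34 log2 units apart from each other. The difference was -0.47 (SE 0.166, 95% interval -0.86 to -0.07; adjusted p = 0.23 in limma), which passed with the intensity trend (adjusted p = 0.030, range 0.030 to 0.49) and was -0.27 after the deposited values were quantile-normalized again. TGFBR1 had values of 8.20 and 8.35, then 7.97 and 8.02. Its groups did not overlap either, and the difference of -0.28 (95% interval -0.63 to 0.07) became -0.10 after quantile normalization.

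Of 14 measured other ligands, receptors, SMAD proteins and target genes of the TGF-beta pathway, 2 were higher and 12 lower (median -0.20, or -0.07 after quantile normalization), and 0 passed over all features in limma, against 3 lower at an unadjusted p under 0.05. Over all features 59.5% were lower, 81.2% of the brightest 25%, and 12.8% were lower at that p. SMAD3, which carries the signal from the receptors to the nucleus, had values of 9.43 and 9.44 in controls, against 8.59 and 8.74 under the inhibitor, a difference of -0.77 (SE 0.144, adjusted p = 0.14). The co-receptor ENG (endoglin) differed by -0.41 (SE 0.139) and the SMAD corepressor SKI by -0.45 (SE 0.183). With the intensity trend 3 genes of this list passed, all lower, against 6.09% of all features. They were SMAD3 (adjusted p = 0.0015 in limma), ENG (0.01) and the target gene CCN2 (0.047), which differed by -0.33. SKI did not pass (0.17).

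Genes of the epithelial-mesenchymal transition, the programme in which SNAI2 acts, did not go one way. Of 9, 4 were higher and 5 lower, against 40.5% and 59.5% of all features, so the directions were near those of the whole array. In limma 0 passed over all features. At an unadjusted p under 0.05, 1 was higher and 1 lower, against 5.11% and 12.8% of all features. The matrix protein FN1 (fibronectin) differed by 0.38 (SE 0.142, adjusted p = 0.25), the repressor ZEB1 by -0.34 (SE 0.14, adjusted p = 0.28) and N-cadherin, CDH2, by -0.31 (SE 0.143, adjusted p = 0.32). With the intensity trend FN1 passed as higher (adjusted p = 0.022 in limma) and ZEB1 as lower (0.047), against 1.02% and 6.09% of all features. When quantile normalization was added to the trend, FN1 passed (0.00088) and ZEB1 did not (0.49).

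Of 8 developmental transcription factors, 7 were measured, and 5 of these were lower and 2 higher. MEIS2 and MEIS1 are TALE homeodomain proteins that bind DNA with PBX partners, and MEIS2 is a reported miR-204 target in the eye. MEIS2 (TC1500009036.hg.1) had values of 6.90 and 7.15 in controls, against 6.75 and 6.33 under the inhibitor. The groups did not overlap, but replicates were far apart in both, by 0.25 and 0.42. Its difference was -0.48 (SE 0.192, 95% interval -0.94 to -0.03; adjusted p = 0.26 in limma). Without inhibitor array 2 it was -0.28 and without inhibitor array 1 it was -0.70. MEIS1 had values of 6.09 and 5.89, then 5.77 on both inhibitor arrays, a difference of -0.22 (95% interval -0.57 to 0.13).

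TCF12, an E protein that pairs with tissue-specific helix-loop-helix factors, had values of 8.08 and 8.02, then 7.77 and 7.92. Its difference of -0.21 was close to the median of features of its brightness (-0.20) and was -0.01 after quantile normalization. RUNX2, the master factor of bone formation, had values of 9.28 and 9.39, then 9.27 and 9.09. Its groups were separated by 0.01 only, and its difference of -0.16 turned to 0.06 after quantile normalization. MITF, the melanocyte lineage factor, had values of 5.95 and 6.06, then 6.05 and 5.54. Its inhibitor arrays were the furthest apart of all members, by 0.51, and its difference of -0.21 was 0.04 without inhibitor array 2.

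The remaining factors were near 0. SOX4, a SOX factor of progenitor cells, had values of 6.35 and 6.50, then 6.60 and 6.50 (difference 0.13, 95% interval -0.22 to 0.47). HMGA2, a chromatin protein of embryonic and tumour cells that is also a let-7 target, had 7.64 in both controls, then 7.50 and 7.87, so that the inhibitor arrays lay on either side of the controls. Genes downstream of MITF were dim: 5 measured melanocyte genes ranged from 2.72 to 5.17 in the controls, 3 were higher and 2 lower, and 0 passed in limma at either an adjusted or an unadjusted p under 0.05. The pigment cell genes PMEL, MLANA and TYR, the 3 with the largest statistics, differed by -0.16, 0.09 and 0.04.

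CREB1 switches on genes in response to cyclic AMP and calcium. The neurotrophin BDNF is one of its classical targets and the ligand of the receptor kinase NTRK2. CREB5 had values of 8.71 and 8.82 in controls, against 8.46 and 8.43 under the inhibitor. Both inhibitor arrays were lower, and the difference was -0.32 (SE 0.142, 95% interval -0.66 to 0.02; adjusted p = 0.30 in limma), or -0.11 after quantile normalization. CREB1 had 7.75 and 7.93, then 7.71 and 8.01, with groups that overlapped and a difference of 0.02 (95% interval -0.38 to 0.42). BDNF had 6.72 and 6.52, then 6.50 and 6.47 (difference -0.14, or -0.02 after quantile normalization). NTRK2 was among the dimmest members, with 3.39 and 3.19, then 3.22 and 3.53. Of 3 other neurotrophin genes measured, 0 passed in limma at either p: the ligand NTF4 differed by 0.34 (SE 0.217), the receptor NTRK3 by -0.22 (SE 0.141) and the shared receptor NGFR by 0.21 (SE 0.189).

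Of 6 signalling enzymes, adaptors and channels, 4 were measured. SIRT1 is an NAD-dependent deacetylase and one of the most often cited miR-204 targets. Its values were 7.14 and 6.94 in controls, against 7.09 and 7.23 under the inhibitor. The groups overlapped, and the difference of 0.12 had a 95% interval of -0.25 to 0.49, so an increase of up to 0.49 log2 units lay within the error. JAK2, a kinase of cytokine receptors, had 4.94 and 5.24, then 5.18 and 5.19. The inhibitor arrays fell between the controls.

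PREX1, an exchange factor that activates Rac, had 8.40 in both controls and 8.14 and 8.05 with the inhibitor. The groups were separate, and the difference was -0.30 (SE 0.141, 95% interval -0.64 to 0.03; adjusted p = 0.31 in limma), or -0.12 after quantile normalization. ITPR1, a calcium channel of the endoplasmic reticulum, had 3.86 and 3.82, then 3.55 and 3.83, near the bottom of the range.

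Membrane traffic, the cytoskeleton and autophagy gave 7 members, 2 higher and 5 lower. MAP1LC3B encodes LC3B, the protein that is coupled to lipid on the forming autophagosome, and it is a reported miR-204 target in kidney cancer and heart muscle cells. MAP1LC3B (TC1600011442.hg.1) had values of 8.69 and 8.51 in controls, against 8.93 and 9.10 under the inhibitor. Both inhibitor arrays were above both controls. The difference was 0.42 (SE 0.154, 95% interval 0.05 to 0.78), or 1.33-fold, with an adjusted p of 0.24 in limma. The intensity trend brought it past the threshold in limma (adjusted p = 0.042, range 0.012 to 0.43 across the settings on 4 arrays). After quantile normalization the difference was 0.62.

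RAB40B, a Rab protein with a SOCS box that recruits ubiquitin ligases, was the other gene of this role that was higher. It had 6.60 and 6.31, then 6.85 and 6.73, a difference of 0.34 (SE 0.163, 95% interval -0.05 to 0.72; adjusted p = 0.33 in limma), or 0.46 after quantile normalization. RAB22A, a GTPase of endosomes that has been reported as a miR-204 target in several carcinomas, had 9.04 and 9.03, then 9.05 and 9.00. These 4 values agreed within 0.05 log2 units, the difference was -0.01 (95% interval -0.34 to 0.32), and it was 0.20 after quantile normalization.

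AP1S1 and AP1S2 encode alternative small subunits of AP-1, the clathrin adaptor of the trans-Golgi network. AP1S1 (TC0700008583.hg.1) had 6.86 and 6.91 in controls, against 6.54 on both inhibitor arrays. The groups were separate by more than any gap between replicates, and the difference was -0.35 (SE 0.139, 95% interval -0.68 to -0.01; adjusted p = 0.27 in limma), or -0.21 after quantile normalization. AP1S2 had 8.12 and 8.21, then 7.89 and 7.95, a difference of -0.25 (95% interval -0.58 to 0.09).

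CDC42, a GTPase that sets cell polarity, had 9.72 and 9.71, then 9.42 and 9.47, a difference of -0.27 (SE 0.139, adjusted p = 0.36 in limma). Its groups stood well apart beside gaps of 0.01 and 0.05 between replicates, but the difference was -0.06 after quantile normalization. Ezrin, EZR, links actin filaments to the plasma membrane and was the brightest member, at 11.24 and 11.31, then 11.09 and 11.16 (difference -0.15, or -0.02 after quantile normalization).

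Of the last 3 members, ALPL alone had groups that did not overlap. ALPL, the tissue-nonspecific alkaline phosphatase that bone needs to mineralise, had 3.34 and 3.64 in controls, against 3.84 and 3.72 under the inhibitor, a difference of 0.29 (95% interval -0.10 to 0.68) at a level within the dimmest 25% of features. The deubiquitinase USP47 had 8.96 and 8.93, then 8.70 and 8.99, and XRN1, the exonuclease that degrades decapped messenger RNA, had 6.60 and 6.49, then 6.47 and 6.72. For both, the 2 inhibitor arrays fell on opposite sides of the controls.

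**Figure D2:**
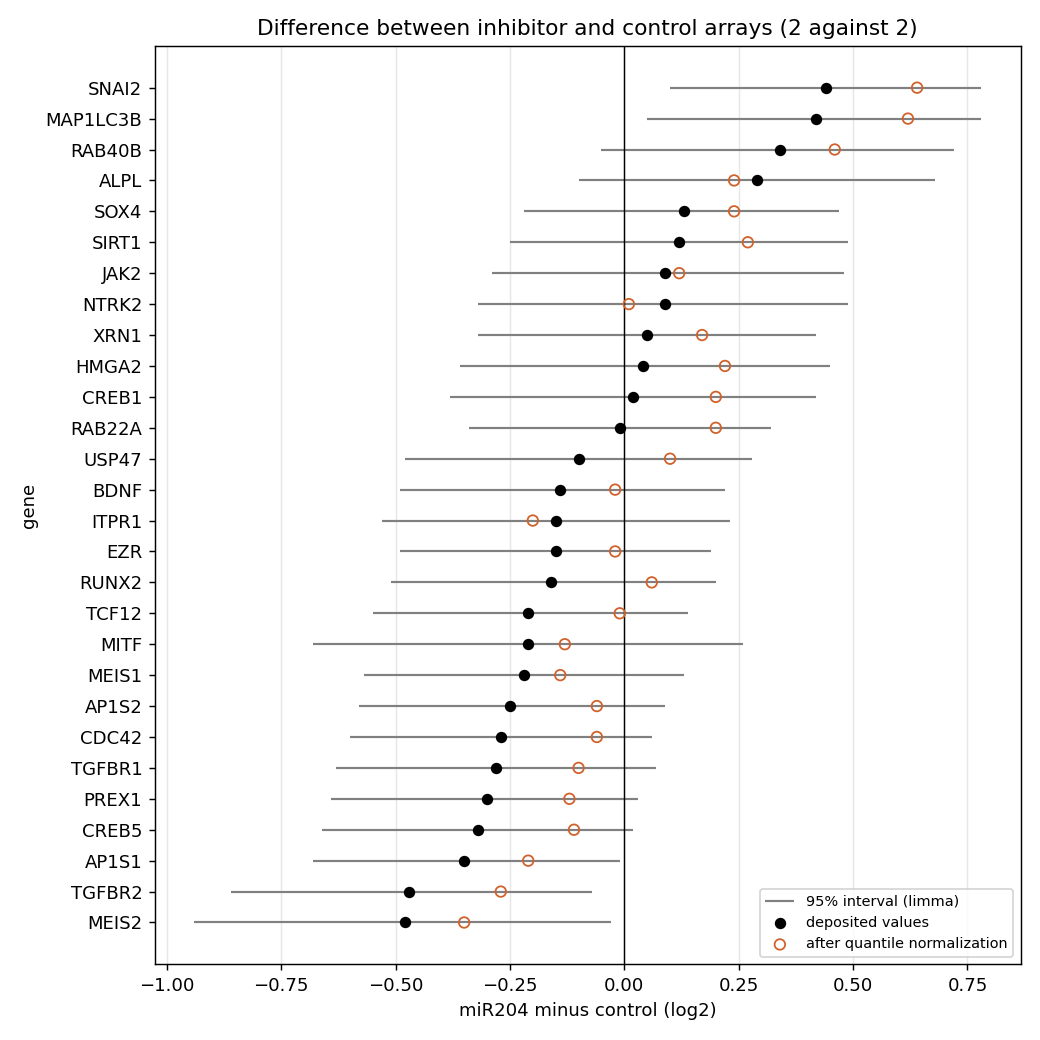
Difference between the inhibitor and the control arrays (log2, x axis) for each of the 28 reported targets (y axis, sorted), with the 95% interval from limma as a grey line; black points use the deposited values and open orange circles the values after another quantile normalization. The intervals of SNAI2, MAP1LC3B, AP1S1, TGFBR2 and MEIS2 leave out 0, and the open circles lie to the right of the black points for most members.

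Brightness moved with the differences. Most reported targets are bright features: 15 lay in the brightest 25% of features, 9 in the next, 1 in the one below and 3 in the dimmest. Over all features the median difference went from 0.07 in the dimmest 25% through -0.01 and -0.12 to -0.20 in the brightest 25%, where 81.2% of features were lower. The members' medians followed, at 0.09 in the dimmest 25%, -0.14 between the median and the 75th percentile and -0.16 in the brightest, where 11 of 15 were lower. Set against the median of its own brightness class, 15 members were above and 13 below, with a median of 0.03. SNAI2 and MAP1LC3B then stood at 0.64 and 0.62, MEIS2 at -0.37 and TGFBR2 at -0.26. These are descriptions of the arrays, and the part of brightness in any single difference was not tested.

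The intensity trend took 3 members past an adjusted p of 0.05 in limma, against 7.11% of all features: SNAI2 and MAP1LC3B among the higher (1.02% of all features) and TGFBR2 among the lower (6.09%). With quantile normalization and the trend together, a setting whose counts were added after the data were seen, SNAI2 (adjusted p = 0.0018) and MAP1LC3B (adjusted p = 0.012) passed, 2 higher and 0 lower, against 2.61% of all features (1.42% higher, 1.19% lower). TGFBR2 then had an adjusted p of 0.18.

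**Figure D3:**
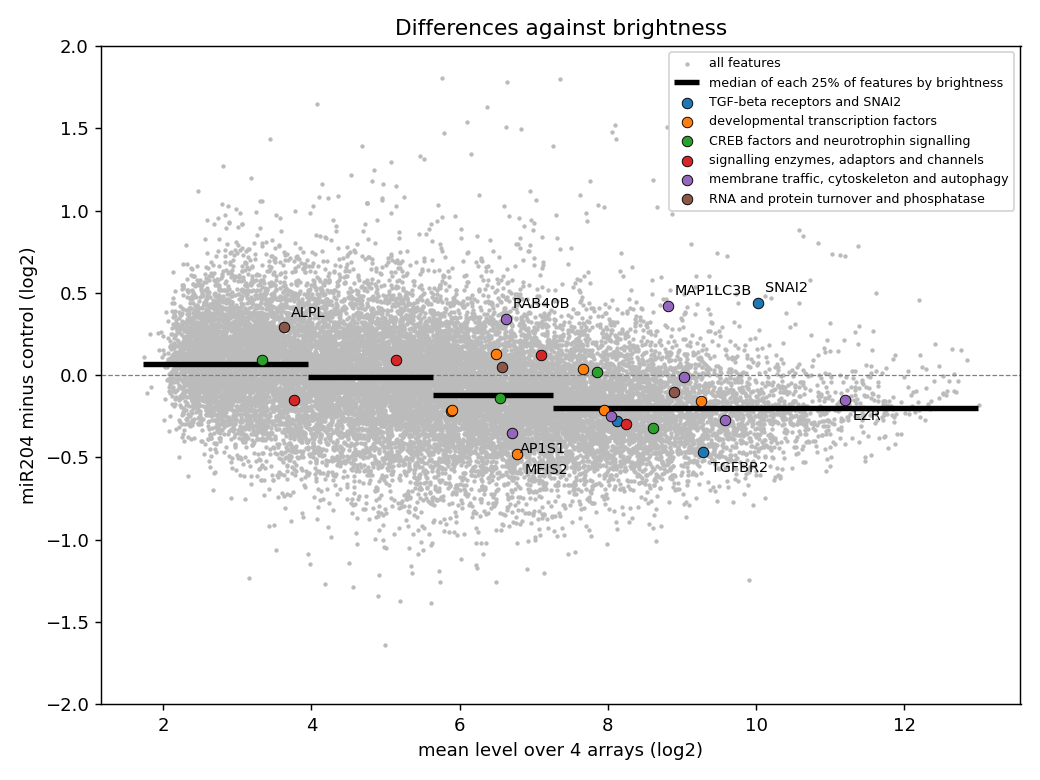
Difference between inhibitor and control arrays (log2, y axis) against the mean level over the 4 arrays (log2, x axis); grey points are all features, coloured points the 28 reported targets by role, and black bars the median difference of each 25% of features by brightness. The bars step down from 0.07 to -0.20, and SNAI2 and MAP1LC3B stand above the features of their brightness; 5 features lie outside the drawn range.

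The balance of directions moved with the scaling. With another round of quantile normalization, which gives every array the same distribution, 14 members were higher and 14 lower, the median of the members was 0.00, and over all features 49.4% were higher and 50.6% lower. At an unadjusted p under 0.05, 3 members then differed, 3 higher and 0 lower, against 13.7% of all features (6.57% higher, 7.10% lower). They were SNAI2 (0.64), MAP1LC3B (0.62) and RAB40B (0.46). Cyclic loess, a scaling added after the data were seen, gave these 3 members too, against 13.9% of all features (6.97% higher, 6.93% lower). After quantile normalization TGFBR2, MEIS2 and AP1S1 were still lower but not past that threshold, with unadjusted p-values of 0.12, 0.12 and 0.15 in limma.

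Separation of the groups gave a similar picture. For 17 members no control value overlapped the inhibitor values, or 60.7% of them, against 50.3% of all features. Of these, 4 were higher (16.5% of all features): SNAI2, MAP1LC3B, RAB40B and ALPL. The other 13 were lower (33.8% of all features). In the brightest 25% of features, 61.6% of all features were lower without overlap, and 9 of 15 members were. After quantile normalization 18 members had no overlap, against 46.7% of all features, 9 of them higher and 9 lower, against 22.7% and 23.9%.

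The median gap between the 2 controls was 0.11 log2 units for the members and 0.13 for all features, and between the 2 inhibitor arrays 0.12 and 0.21. Standard errors of the members ran from 0.139 to 0.198. Their 95% intervals, not adjusted for the number of features, reached 0.33 to 0.47 log2 units on either side. A change smaller than that could not be told from 0 with 2 arrays per group. The adjusted threshold was harder to pass: CDH5 (-1.08, adjusted p = 0.10 in limma) and EPHB1 (-1.02, adjusted p = 0.13) missed it, whereas CXCL8 (1.50, adjusted p = 0.041) passed. Missing it therefore does not show that a member was unchanged. With 2 arrays per group, the smallest p of an exact permutation test is 0.333.

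Close relatives of the members, proteins of the same families that are not on the list, differed by -1.02 to 0.56, and the members by -0.48 to 0.44. Of 45 measured relatives, 11 were higher and 34 lower, with a median of -0.17 (-0.03 after quantile normalization). In limma 0 passed over all features, with 3 higher and 7 lower at an unadjusted p under 0.05, against 5.11% and 12.8% of all features. With the intensity trend 5 relatives passed, all lower, against 6.09% of all features. The largest statistics belonged to EPHB1, an ephrin receptor (-1.02, SE 0.175, adjusted p = 0.13), the E protein TCF4 (-0.51, SE 0.153, adjusted p = 0.19) and the chromatin protein HMGA1 (-0.45, SE 0.144, adjusted p = 0.21). The following contrasts within families were chosen after their values were seen. All 3 small AP-1 subunits were lower, AP1S3 reading 5.59 and 5.64 in controls against 5.25 on both inhibitor arrays, a difference of -0.36 beside -0.35 for AP1S1. The LC3 relatives MAP1LC3A and MAP1LC3C differed by -0.30 and -0.18, opposite in sign to MAP1LC3B, and MEIS3, dim at 3.59 and 4.19 in the controls, by 0.56, opposite to MEIS1 and MEIS2. Differences between relatives were not tested.

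**Figure D4:**
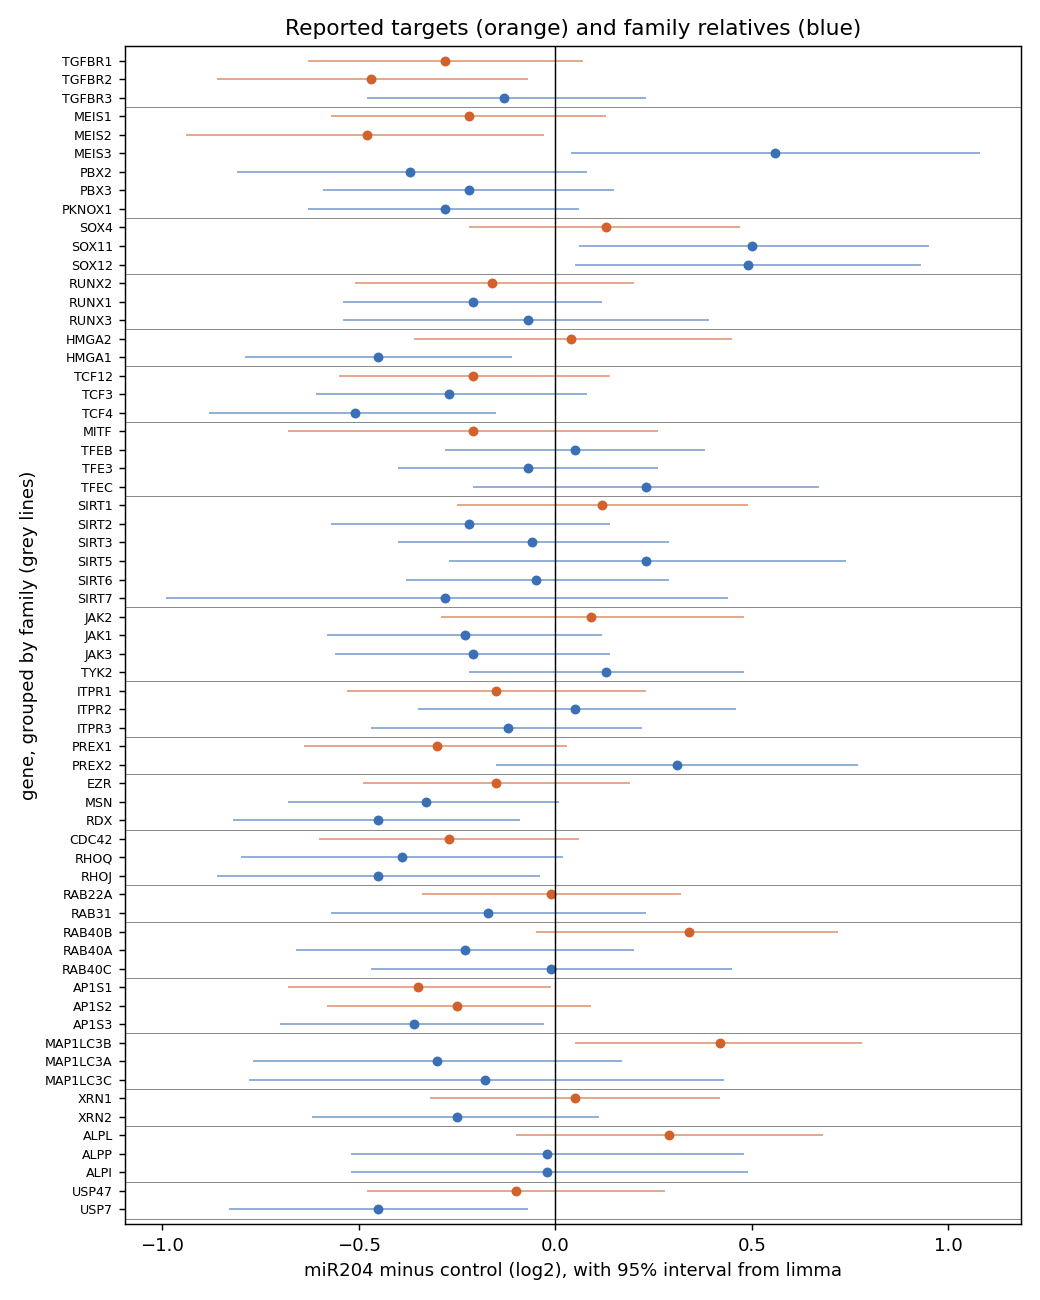
Difference between inhibitor and control arrays (log2, x axis) with its 95% interval from limma (lines) for reported targets (orange) and measured relatives of the same families (blue), 1 gene per line and families divided by grey lines. MAP1LC3B lies at 0.42 with MAP1LC3A and MAP1LC3C below 0, while AP1S1, AP1S2 and AP1S3 all lie below 0. The intervals of MAP1LC3A, MAP1LC3C and AP1S2 include 0.

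A further 12 measured messenger RNAs reported as targets, kept apart from the list above, had a median of -0.05. Of these, 5 were higher and 7 lower, against 40.5% and 59.5% of all features. At an unadjusted p under 0.05 in limma, 3 were higher and 1 lower, against 5.11% and 12.8% of all features. With the intensity trend 2 passed as higher and 1 as lower, against 1.02% and 6.09%. Without the trend 1 passed, against 0.0513% of all features: the chemokine CXCL8, which rose from 8.06 and 8.03 to 9.50 and 9.60. Its difference was 1.50 (SE 0.141, adjusted p = 0.041 in limma, or 0.058 after quantile normalization). The matrix protein THBS1 had a difference of 0.58 (SE 0.147, adjusted p = 0.17) and the fatty acid elongase ELOVL6 one of -0.86 (SE 0.177, adjusted p = 0.15). Without any 1 of the 4 arrays CXCL8 no longer passed. TRPM3, the gene that carries miR-204, had 4.02 and 4.19 in controls, against 4.42 and 4.54 under the inhibitor (difference 0.37, SE 0.15, adjusted p = 0.26), and TRPM1 had 5.17 and 5.11, then 5.55 and 4.85 (difference 0.06, SE 0.236). Both lay below the median level of all features.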

How the data were processed

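The authors deposited log2 expression values of Affymetrix Human Clariom S arrays, for which the submitters' processing notes name RMA and Transcriptome Analysis Console 4.0; parameters and build are not given in the sources used here. RMA includes quantile normalization, yet array distributions were not equal. Detection calls were not used, so a dim feature cannot be told from an undetected one. Symbols came from the platform annotation, and 3739 features had none.

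The comparison was fitted in R 4.3.3 with limma 3.58.1 (lmFit and eBayes, 2 residual and 4.78 prior degrees of freedom, no replicate block). The test used all features, with Benjamini-Hochberg adjustment over all of them and no filter, and was tested on simulated data. Intervals are at 95%. The number of arrays limits the precision.

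Members and companion lists were chosen with earlier results of these data known. All measured members are named, and from each companion list the 3 genes with the largest statistics plus any past the threshold. The lists are other reported targets, the TGF-beta pathway, epithelial-mesenchymal transition, neurotrophins, relatives, melanocyte genes, silencing proteins, host genes and markers of ovarian carcinoma, drug resistance, endothelium, leukocytes and fibroblasts. Other settings concerned the prior, scaling, filters, the block and each array left out.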

Additional observations from a re-analysis of the deposited data

How the results depend on the processing

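No member passed an adjusted p of 0.05 with the deposited values, and the number became 3 with the intensity trend (SNAI2 and MAP1LC3B higher, TGFBR2 lower; 7.11% of all features passed) and 2 with quantile normalization and trend together, counts that were added after the data were seen (SNAI2 and MAP1LC3B; 2.61% of all features). It stayed 0 under the other settings, with 0 to 0 when 1 array was left out. The count of 5 members at an unadjusted p under 0.05 became 9 with the trend, 9 over features above the median level, 3 after quantile normalization, 3 after cyclic loess (a setting chosen after seeing the data) and 0 to 6 with 1 array left out: 0 without control array 1, 0 without control array 2, 6 without inhibitor array 1 and 3 without inhibitor array 2. The 11 features past the threshold became 1525 with the trend, 559 with quantile normalization and trend, 1011 above the median level, 38 without the dimmest 25%, 4 in a test without moderation, 0 after quantile normalization and 0 to 0 with 1 array left out. The replicate numbers are not stated to pair arrays (correlation of same-numbered deviations 0.00579). With the number as a replicate block 0 features passed, 0 members passed and 2 members had an unadjusted p under 0.05. The members' median of -0.14 was 0.04 after cyclic loess and -0.14 to -0.08 with 1 array left out.

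Of 28 members, 18 kept their sign under every setting run. Signs turned for RUNX2 (0.06 after quantile normalization, with and without trend, and after cyclic loess), USP47 (0.10 in the former pair, 0.11 after cyclic loess), RAB22A (0.20 in all 3, 0.06 with equal array medians) and EZR (0.06 after cyclic loess). With 1 array left out the differences ran from -0.14 to 0.23 for HMGA2, -0.47 to 0.04 for MITF, -0.13 to 0.17 for CREB1, -0.07 to 0.24 for NTRK2, -0.06 to 0.24 for JAK2, -0.04 to 0.01 for RAB22A, -0.25 to 0.04 for USP47 and -0.08 to 0.17 for XRN1. The cause of these changes was not tested. Fits with 1 array less have fewer degrees of freedom, which bears on their p-values and not on the differences.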

Other observations

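Proteins that carry out microRNA silencing were measured on the same arrays. Of 10, 3 were higher and 7 lower with the inhibitor, against 40.5% and 59.5% of all features. In limma 0 passed over all features. At an unadjusted p under 0.05, 1 was higher and 2 lower, against 5.11% and 12.8% of all features. XPO5, which exports microRNA precursors from the nucleus, had values of 6.47 and 6.42 in controls, against 4.98 and 5.97 under the inhibitor (difference -0.97, SE 0.303, adjusted p = 0.20), with inhibitor arrays nearly 1 log2 unit apart. The Argonaute genes AGO1 and AGO3 differed by -0.48 (SE 0.158) and 0.42 (SE 0.159). With the intensity trend XPO5 alone of the 10 passed (adjusted p = 0.038 in limma), against 6.09% of all features in that direction.

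All 9 measured markers of ovarian carcinoma were lower with the inhibitor, with a median of -0.36 (-0.22 after quantile normalization), but PAX8 and KRT8 turned to 0.05 and 0.04 after quantile normalization and to 0.05 and 0.12 after cyclic loess, as did KRT18 (0.01) after the latter. Over all features 59.5% were lower, and 81.2% of the brightest 25%. In limma 0 of them passed over all features, and 3 had an unadjusted p under 0.05, against 12.8% of all features in that direction: the transcription factor WT1 (-0.55, SE 0.15), the mucin MUC16 (-0.39, SE 0.148) and KRT7 (-0.40, SE 0.14). CDH5, an endothelial cadherin, had 7.01 and 7.03 on the inhibitor arrays, a difference of -1.08 from the controls (SE 0.14, adjusted p = 0.10), and PDGFRA, a fibroblast marker, differed by -0.58 (SE 0.145). With the intensity trend CDH5 (adjusted p = 0.00067 in limma) and KRT7 (0.014) passed as lower, against 6.09% of all features. WT1 (0.051), MUC16 (0.33) and PDGFRA (0.13) did not pass with it.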
